A study of Mus musculus with 116 samples.

Results

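The Igkv12 family is a set of variable (V) gene segments of the mouse immunoglobulin kappa light chain locus on chromosome 6. The 6 members described here were Igkv12-38, Igkv12-41, Igkv12-44, Igkv12-46, Igkv12-89 and Igkv12-98, out of 162 Igkv segments that RefSeq places on chromosome 6 of GRCm38. A junction was given to a member when its position lay within 100 bp of the segment. By this rule 131761 of the 1374899 junctions in 42 libraries belonged to the family. RefSeq lists 6 further segments under an Igkv12 name, all pseudogenes, which held 7636 junctions together and were not members. Of these junctions 7533 were at Igkv12-40, which lies between Igkv12-41 and Igkv12-38.

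The libraries came from v-Abl pro-B cells, immature mouse B-lineage cells immortalised by the v-Abl oncogene, and no nuclease was added. Every group carried the Emu-Bcl2 transgene and was arrested in G1 by 96 h of treatment with STI-571, which inhibits the Abl kinase, at 3 µM. The groups were WT (clones A and B), Ku70-/- (A1 and B1), Lig4-/- (A1 in 2 sets, B1 and C), Lig4-/- with Lig4 added back (A1 and C), Lig4-/-Ku70-/- (A1_1 and C1) and Lig4-/-Ku70-/- with Ku70 added back (A1_1 and C1). Each of these 14 groups was 1 clone with 3 replicate libraries, so clone and genotype vary together within a lineage, which is named here by the clone's first letter. The labels do not say whether replicates came from separate cultures, and p-values then measure only the spread between libraries, which may be technical.

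In developing B cells the RAG recombinase cuts beside a V segment and a joining (J) segment at recombination signal sequences, each a heptamer and a nonamer held apart by a spacer. The V and J coding ends are opened from hairpins, trimmed and joined by classical non-homologous end joining, in which the Ku70/Ku80 heterodimer binds the ends and DNA ligase IV (Lig4) seals them. Ends that are joined without these factors often share a few bases at the junction, called microhomology. A V segment that points the same way as the J segments is joined by deletion of the DNA between them, and one that points the other way by inversion. Reading started at the coding end of Jk1 (the bait) at chr6:70722562, and the V sequence that followed was the prey.

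The 6 members differ in the bases that a coding joint uses and hardly at all in their recombination signals. The last 30 coding bases and the signal of each are shown 5′ to 3′ in the coding sense, as the commonest base at each position among the deposited reads, with heptamer and nonamer in capitals.
Igkv12-38: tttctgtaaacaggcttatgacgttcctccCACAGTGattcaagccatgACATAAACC
Igkv12-41: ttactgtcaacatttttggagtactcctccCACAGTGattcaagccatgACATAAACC
Igkv12-44: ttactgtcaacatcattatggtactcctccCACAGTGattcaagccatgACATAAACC
Igkv12-46: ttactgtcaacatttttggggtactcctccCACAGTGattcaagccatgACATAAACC
Igkv12-89: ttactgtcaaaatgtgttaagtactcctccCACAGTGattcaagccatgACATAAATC
Igkv12-98: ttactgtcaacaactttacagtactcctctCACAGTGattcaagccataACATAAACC
Jk1: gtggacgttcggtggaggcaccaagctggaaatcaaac

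All 6 heptamers read CACAGTG. The nonamer was ACATAAACC in 5 members and ACATAAATC in Igkv12-89, and only Igkv12-98 had a different spacer. In the 30 coding bases Igkv12-41 and Igkv12-46 were 96.7% identical, while Igkv12-38 shared 56.7% to 70% with the others. Over the last 150 coding bases the identity was 94% between Igkv12-41 and Igkv12-46, 93.3% between Igkv12-41 and Igkv12-44, and 76.7% to 81.3% between Igkv12-38 and any other member. The Jk1 line is the first 38 bases from its coding end, chr6:70722562-70722599, and contains gacgttc, which Igkv12-38 also carries near its end.

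On GRCm38 the printed stretches lie at chr6:69943158-69943215 (Igkv12-38), chr6:69858392-69858449 (Igkv12-41), chr6:69814603-69814660 (Igkv12-44), chr6:69764495-69764552 (Igkv12-46), chr6:68834818-68834875 (Igkv12-89) and chr6:68571206-68571263 (Igkv12-98). The first 4 form a proximal cluster that begins 0.779 Mb and ends 0.958 Mb from Jk1, between the pseudogene Igkv12-47 and the segment Igkv5-37, and that spans 10 RefSeq segments. Igkv12-89 lies 1.89 Mb from Jk1, between the pseudogene Igkv13-89-1 and Igkv1-88. Igkv12-98 lies 2.15 Mb from Jk1, between Igkv1-99 and the pseudogene Igkv15-97. RefSeq classes all 6 members as V segments. The side of each coding end was taken from the majority read direction in WT libraries, which placed 5 members on the minus strand, joined by inversion, and Igkv12-98 on the plus strand, joined by deletion.

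The number of junctions per library differed by orders of magnitude between groups, and it limits what can be said. Per the labels, libraries of a lineage were normalised to the same number of raw reads, 167151 in A, 600000 in B and 377068 in C. Differences within a lineage are thus in junctions found and not in reads used. Groups with at least 1000 junctions in each library are called deep below. Lists held 47130 to 53074 junctions in WT A, 291174 to 305846 in WT B, 3075 to 6383 in Ku70-/- A1, 50218 to 60811 in Ku70-/- B1, 10577 to 35059 in the Lig4 add-back groups and 1867 to 7225 in the Lig4-/-Ku70-/- groups. Lig4-/- libraries held 3 to 74 junctions. All intervals and zero limits below cover counting error only, because reads carry no molecular identifiers. Counting each distinct junction once left 1717 of 11233 family junctions in WT A and 5337 of 91061 in WT B, against 517 of 1120 in Ku70-/- A1 and 6945 of 16096 in Ku70-/- B1.

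Family usage, the percent of a library's junctions at the 6 members, was near 10% or below in every deep group. In WT it was 8.79%, 6.66% and 6.82% in the libraries of clone A and 10.3%, 10.2% and 10.2% in clone B. In Ku70-/- it was 7.02%, 8.10% and 6.96% in clone A1 and 9.62%, 9.46% and 9.20% in clone B1. The libraries overlapped between genotypes in lineage A, and in lineage B all 3 Ku70-/- libraries lay below all 3 WT libraries. The mean over both lineages was 0.435 percentage points lower in Ku70-/- (two-sided exact permutation of libraries within lineages, p = 0.28, adjusted p = 0.378 over 27 exact tests). With each distinct junction counted once the difference was 1.43 percentage points in the other direction (exact p = 0.005, the smallest that 400 relabellings allow). That count compares numbers of different joints and not how often members were joined. It kept unequal parts of the genotypes, 5337 of 91061 family junctions in WT B and 6945 of 16096 in Ku70-/- B1. With a window of 25 bp the difference was -1.16 percentage points (exact p = 0.02). The direction and the call thus both depend on how junctions are counted. The narrow window drops junctions farther out on the side of the recombination signal. Ku70-/- had such junctions, with 1.36% of family junctions on average at position -27 from the V coding end. In WT the farthest on that side lay at position -25. How much this moved the difference was not tested.

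Within the family, usage was steeply uneven. Igkv12-44 was the most used member with 4.55% ± 0.0353 of junctions in WT B (SD, n = 3) and 3.91% ± 0.756 in WT A. Igkv12-46 followed with 2.81% ± 0.0162 and 1.60% ± 0.344, and Igkv12-41 with 1.83% ± 0.036 and 1.18% ± 0.0985. Igkv12-38, the member nearest Jk1, had 0.434% ± 0.0086 and 0.267% ± 0.0655. The distal Igkv12-98 had 0.388% ± 0.00984 and 0.232% ± 0.0344, and the distal Igkv12-89 had 0.232% ± 0.0104 and 0.232% ± 0.0426. Across the 8 deep groups Igkv12-44, Igkv12-46 and Igkv12-41 always took ranks 1 to 3 and the other members ranks 4 to 6. Igkv12-38, Igkv12-89 and Igkv12-98 exchanged places between groups, and in WT A they did not differ beyond their spread. The ranks leave out the pseudogene Igkv12-40, which held 1863, 1785 and 1916 junctions in WT B against 1286, 1245 and 1336 at Igkv12-38. In WT A it held 90, 115 and 77 against 153, 102 and 149.

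**Figure D1:**
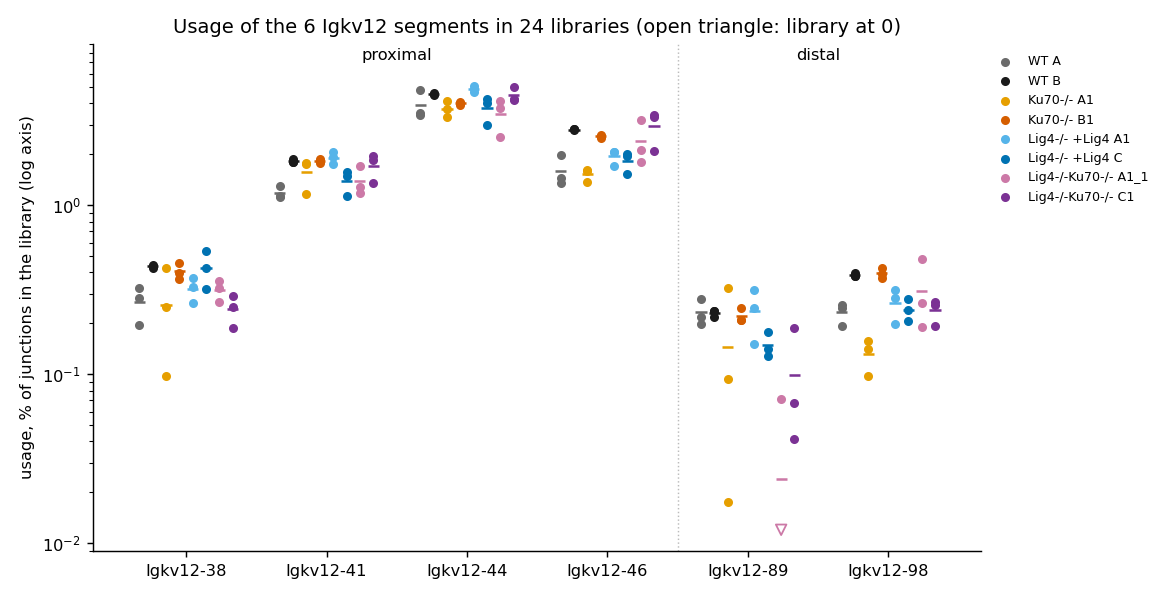
Usage of each member, as percent of all junctions in a library on a log axis, for 8 groups; points are libraries, short lines are means of 3 libraries, and the open triangle marks libraries at 0. Igkv12-44, Igkv12-46 and Igkv12-41 sit above the other 3 members in all groups.

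Per-segment usage was fitted across 105 Igkv segments with limma on log2 percentages, using a pseudocount of 0.5, to compare genotypes. For Ku70-/- against WT, 0 of 6 members passed an adjusted p of 0.05, whereas 41.9% of all tested segments did. Without adjustment 1 member, Igkv12-89, passed 0.05 in limma, with a log2 difference of -0.71 (SE 0.31, limma adjusted p = 0.0614). The median over the members was -0.10 and over all segments -0.07. Igkv12-44 differed by -0.10 (SE 0.10), Igkv12-46 by -0.07 (SE 0.14; 0.03 with libraries centred on their median segment), Igkv12-41 by 0.17 (SE 0.12), Igkv12-38 by -0.09 (SE 0.23) and Igkv12-98 by -0.34 (SE 0.23). With each distinct junction counted once, Igkv12-44 differed by 0.73 (limma adjusted p = 3.47e-10) and Igkv12-46 by 0.34 (limma adjusted p = 0.00296), the other direction, and Igkv12-89 by -0.94 (limma adjusted p = 0.000261). None of the 6 members had a usage change that differed between lineages A and B in limma (26.7% of segments did). Without adjustment 1 member, Igkv12-89, passed 0.05 there (log2 difference of differences -1.29, SE 0.61, limma adjusted p = 0.109), and it was called without Ku70-/- A1 replicate 1, at -2.10 (limma adjusted p = 0.0375). Igkv12-89 rested on few junctions in clone A1, where the 3 libraries held 10, 1 and 6 of them, and without the first of these its adjusted p for Ku70-/- against WT was 0.0175 at a log2 difference of -1.11. Without the second, the log2 difference was -0.26 (limma adjusted p = 0.569).

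For Lig4-/-Ku70-/- against the Lig4 add-back, usage changed at 2 of 6 members in limma, against 48.6% of all segments, of which 14.3% of segments were higher and 34.3% lower. Igkv12-46 rose by 0.45 log2 (SE 0.17, limma adjusted p = 0.0248) and Igkv12-89 fell by 1.80 log2 (SE 0.47, limma adjusted p = 0.00175). Igkv12-89 held 0, 0 and 3 junctions in clone A1_1 and 3, 11 and 3 in clone C1, against 28, 16 and 43 in the A1 add-back and 45, 37 and 36 in the C add-back. The 2 empty libraries allow a share of up to 0.161% and 0.0877%. Igkv12-46 was at 3.21%, 1.81% and 2.13% in clone A1_1 and 2.09%, 3.44% and 3.31% in clone C1, against 1.71%, 2.07% and 2.07% and 1.52%, 1.95% and 2.00% in the add-back libraries. These overlapped in lineage A and not in lineage C. The median log2 difference over all segments was -0.37, so that zero is not the centre of this comparison; with each library centred on its median segment, Igkv12-89 differed by -1.43 (limma adjusted p = 0.0146) and Igkv12-46 by 0.82 (limma adjusted p = 0.000684). With a pseudocount of 2, Igkv12-89 differed by -0.91 (limma adjusted p = 0.0226). The Igkv12-46 call was lost in 5 of 24 fits that left out 1 library, those without Lig4 add-back A1 replicate 1 or C replicate 1 and those without Lig4-/-Ku70-/- A1_1 replicate 1 or C1 replicate 2 or 3 (limma adjusted p of 0.056 to 0.102). No sequencing run held both genotypes, and their parts in this comparison cannot be told apart.

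**Figure D2:**
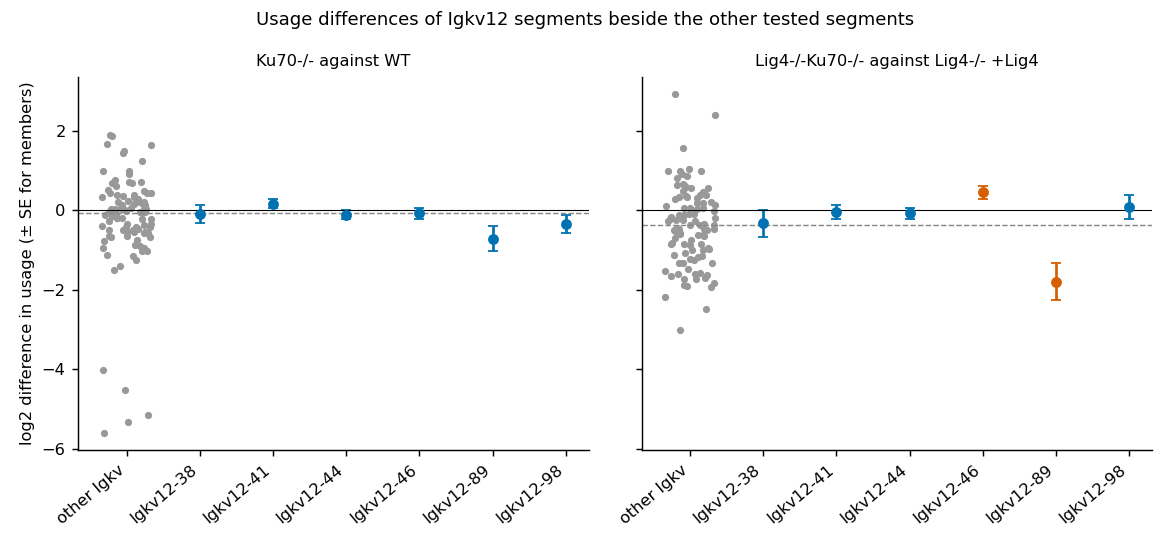
Log2 difference in usage for Ku70-/- against WT (left) and Lig4-/-Ku70-/- against the Lig4 add-back (right); grey points are the other tested Igkv segments, coloured points are members with SE bars (orange: limma adjusted p under 0.05), and the dashed line is the median of all 105 segments. Igkv12-89 is the lowest member in both panels, at -0.71 and -1.80.

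The difference in family usage had opposite signs in the lineages of this second comparison. In lineage A it was 7.66%, 8.25% and 7.81% in Lig4-/-Ku70-/- and 9.11%, 9.95% and 9.64% in the add-back, with no overlap. In lineage C it was 8.73%, 9.65% and 10.7% against 6.30%, 8.74% and 8.33%, with overlap. The mean difference was 0.127 percentage points (two-sided exact permutation p = 0.865, adjusted p = 0.973). The segments outside the named set whose mean usage over the 8 deep groups ranked most like that of the family were Igkv6-23 (Spearman rho 0.881), Igkv6-15 (0.786) and Igkv3-9 (0.738), among 99 compared. These rhos describe 8 group means that share library totals. The segments were also near the floor in some groups. In the Ku70-/- A1 libraries Igkv6-23 held 0, 0 and 1 junctions, Igkv6-15 held 0, 4 and 0, and Igkv3-9 held 0, 0 and 0.

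The structure of the joints separated the genotypes at every library. In WT, 44.2%, 43.5% and 43.6% of family junctions in clone B and 64%, 65% and 63.8% in clone A carried inserted bases, with a median length of 2. In Ku70-/- the insertion share was 1.85%, 0.870% and 1.58% in clone A1 and 1.39%, 1.82% and 1.43% in clone B1. Libraries of the genotypes were fully apart in both lineages, and the mean fell by 52.5 percentage points (two-sided exact permutation p = 0.005, adjusted p = 0.0169).

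Microhomology, an overlap of at least 2 bases between bait and prey, made up 0.217% to 0.288% of family junctions in WT A and 0.595% to 0.661% in WT B. It made up 17.1%, 19.8% and 20.0% in Ku70-/- A1 and 21.0%, 20.7% and 21.4% in Ku70-/- B1. The rise of 19.6 percentage points (exact permutation p = 0.005, adjusted p = 0.0169) was seen in both lineages, at 18.7 and 20.4. It was 18.2 over coding-orientation junctions alone (exact p = 0.005). In the single sequencing run of lineage B and the runs that WT A and Ku70-/- A1 shared, it was 20.0 (exact p = 0.025, the smallest possible there).

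Loss from the V end was also larger. The median number of bases lost was 3 in all 6 WT libraries, and it was 9, 16 and 12 in Ku70-/- A1 and 9 in each library of Ku70-/- B1, a rise of 7.67 bases (exact permutation p = 0.005, adjusted p = 0.0169). An intact V end was found in 18.3% ± 0.32 of coding-orientation family junctions in WT B and in 0.341% ± 0.16 in Ku70-/- B1 (SD, n = 3). Loss of more than 20 bases was found in 0.108% ± 0.013 and in 28% ± 1.0 (SD, n = 3). The Jk1 end had a median loss of 0 bases in WT B and 14 in Ku70-/- B1.

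In the per-segment limma fits of Ku70-/- against WT, 3 members had at least 20 junctions in every library, Igkv12-41, Igkv12-44 and Igkv12-46. All 3 had more microhomology, as had 97.8% of 46 tested segments, while 2.17% had less. Their log2 odds differences were 5.99 (SE 0.38), 6.48 (SE 0.38) and 6.65 (SE 0.41), with limma adjusted p = 6.22e-10 for each, and the median of all segments was 5.05. All 3 also lost more bases, as did 100% of 31 tested segments, by 2.13 (SE 0.05), 2.32 (SE 0.05) and 2.11 (SE 0.07) on the log2 scale of bases lost plus 1. Since nearly all segments were called, these counts set the members apart from nothing.

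**Figure D3:**
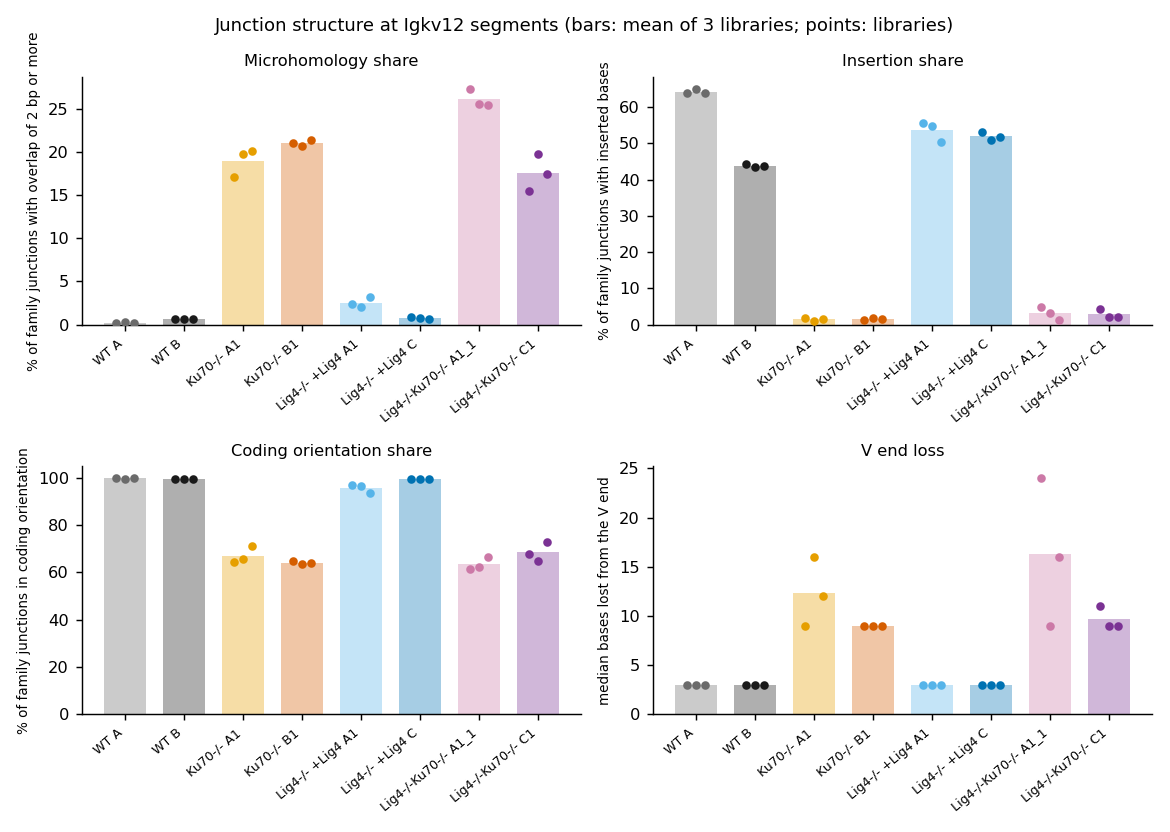
Microhomology share, insertion share, coding-orientation share (percent of family junctions) and median bases lost from the V end, for 8 groups; bars are means of 3 libraries and points are libraries. Both Ku70-/- clones and both Lig4-/-Ku70-/- clones stand apart from WT and the Lig4 add-back in all 4 panels.

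A few joints recurred and show what the shared bases were. Each line below gives V bases, then Jk1 bases, with capitals for the bases that both ends could supply. The first is the most frequent WT B joint of Igkv12-44, with 3 bases lost from V, none from Jk1 and no overlap (4972 of 40468 junctions), and this structure was the most frequent in WT B at all 6 members. The others are from Ku70-/- B1 or, for the last, from WT B.
Igkv12-44 WT: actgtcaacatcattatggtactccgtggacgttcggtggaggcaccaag
Igkv12-44 Ku70-/-: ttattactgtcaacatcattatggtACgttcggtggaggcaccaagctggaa
Igkv12-46 Ku70-/-: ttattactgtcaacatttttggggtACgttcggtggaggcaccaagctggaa
Igkv12-98 Ku70-/-: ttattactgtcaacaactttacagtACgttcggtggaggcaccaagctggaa
Igkv12-38 Ku70-/-: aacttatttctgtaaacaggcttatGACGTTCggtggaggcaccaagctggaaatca
Igkv12-38 WT microhomology: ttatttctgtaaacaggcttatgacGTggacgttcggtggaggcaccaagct

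The AC joint was the most frequent joint of Igkv12-41, Igkv12-44, Igkv12-46 and Igkv12-98 in Ku70-/- B1. It made up 165 of 3120 junctions of Igkv12-41 (53, 52 and 60 in the 3 libraries), 194 of 6867 of Igkv12-44 (50, 71 and 73), 223 of 4365 of Igkv12-46 (63, 81 and 79) and 17 of 675 of Igkv12-98 (6, 7 and 4). In WT B it made up 7 of 16243, 10 of 40468, 5 of 24965 and 5 of 3457. Igkv12-89, which has the same gtactcct stretch, had 5 of 380. Igkv12-38 lacks that stretch and had 0 of 689, which allows a share of up to 0.435%.

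Igkv12-38 had instead a joint over the 7 bases GACGTTC, in 17 of its 689 junctions in Ku70-/- B1 (6, 4 and 7 in the libraries) and in 6 of 3867 in WT B. The other members lack those 7 bases in the printed stretches, so none of them could have this joint. Overlaps of 7 or more bases in coding orientation were found at 20 junctions of Igkv12-38 in Ku70-/- B1 and at 1, 6 and 2 of the much more used Igkv12-41, Igkv12-44 and Igkv12-46. Igkv12-38 also stood highest for microhomology in WT B, at 3.33% of its junctions against 0.420% to 1.04% in the other members, and 106 of 3867 junctions were the GT joint printed above (31, 34 and 41 in the libraries). That joint was not seen in 689 junctions of Ku70-/- B1.

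Among coding-orientation junctions of Ku70-/- B1, microhomology was at 28.8%, 25.4% and 26.3% for Igkv12-46, 23.4%, 23.2% and 22.2% for Igkv12-41 and 16.8%, 17.7% and 19.5% for Igkv12-44. These 3 members, which differ at few bases, had ranges that did not overlap in that clone. In Ku70-/- A1 they did overlap, with 17.2%, 23.1% and 24.6% for Igkv12-46, 0%, 31.3% and 8.47% for Igkv12-41 and 11.3%, 17.0% and 16.1% for Igkv12-44, on 29 to 168 coding-orientation junctions per library. Igkv12-38 was at 17.3%, 15.9% and 21.7%, Igkv12-89 at 14.3%, 12.9% and 15.4%, and Igkv12-98 at 17.7%, 21.7% and 11.7%. The order of the last 3 cannot be read beyond their spread. Differences between members were not tested.

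Orientation changed with Ku70 as well. Coding-orientation junctions, in which the prey runs away from the break into the V segment, made up 99.8%, 99.8% and 99.9% of family junctions in WT A and 99.7%, 99.8% and 99.7% in WT B. They made up 64.4%, 65.7% and 71.2% in Ku70-/- A1 and 64.9%, 63.6% and 64% in Ku70-/- B1. The share fell by 34.2 percentage points (two-sided exact permutation p = 0.005, adjusted p = 0.0169) with no overlap in either lineage. The WT values are high partly by construction, since the direction of each segment was read from WT. At the other Igkv segments the opposite orientation made up 30.1% ± 6.0 in Ku70-/- A1 and 29.3% ± 0.58 in Ku70-/- B1 (SD, n = 3), against 32.9% ± 3.6 and 35.9% ± 0.65 in the family.

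In the opposite orientation the Jk1 end is joined to the side of the V cut that carries the recombination signal, an arrangement called a hybrid joint. Of these family junctions 97.5% ± 0.14 began beyond the V coding end in Ku70-/- B1 (SD, n = 3). Their median distance into the signal side was 10.7 ± 0.58 bases there and 14.3 ± 3.2 in Ku70-/- A1, against 2.33 ± 0.58 in WT B, where opposite junctions numbered 95, 72 and 97. These distances count position -1 relative to the V coding end as 0 bases. Positions -11 and -7 relative to that end were the most frequent on the signal side in Ku70-/-. They held 3.24% and 3.19% of family junctions on average over 6 libraries. A recurrent example, with the signal read from its complementary strand and 2 shared bases in capitals, was found in 57 of 6867 junctions of Igkv12-44 in Ku70-/- B1 and in 0 of 40468 in WT B, which allows up to 0.00741%.
Igkv12-44 opposite: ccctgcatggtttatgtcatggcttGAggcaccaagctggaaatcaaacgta

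The same position of the joint was found at Igkv12-46 (42 of 4365), Igkv12-41 (39 of 3120) and Igkv12-38 (10 of 689) in Ku70-/- B1. Opposite orientation by member in that clone was 36.0% ± 1.2 for Igkv12-46, 35.5% ± 0.38 for Igkv12-44, 39.6% ± 3.4 for Igkv12-41, 34.7% ± 7.2 for Igkv12-38, 29.8% ± 3.0 for Igkv12-89 and 24.9% ± 4.4 for Igkv12-98 (SD, n = 3). Differences between members were not tested. Igkv12-98, the sole member joined by deletion, had the lowest mean in this clone, while in Ku70-/- A1 its 3, 8 and 10 junctions gave 57.5% ± 45.

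**Figure D4:**
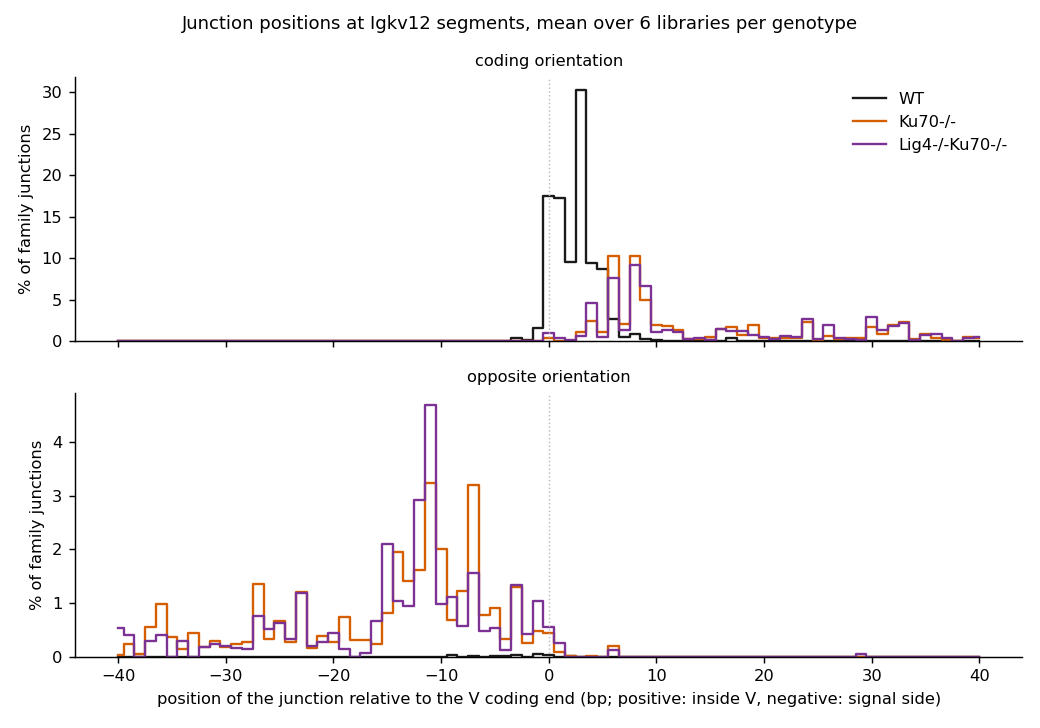
Position of family junctions relative to the V coding end in bp (positive values lie inside the V segment, negative values on the signal side), as percent of family junctions averaged over 6 libraries per genotype; coding orientation above, opposite orientation below. WT peaks at 3 bases inside the V segment (30.3%), Ku70-/- at 8 and 6 bases (10.3% and 10.2%), and the signal side is filled in Ku70-/- and Lig4-/-Ku70-/- libraries.

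Proximal members made up most of the family in every deep group. Their share of family junctions was 95.5%, 91.9% and 93.2% in WT A and 94.0%, 94.1% and 93.7% in WT B. In Ku70-/- it was 94.0%, 98% and 96.4% in clone A1 and 93.8%, 93.3% and 93.3% in clone B1, which overlapped with WT in both lineages. The mean difference was 1.05 percentage points (exact permutation p = 0.27, adjusted p = 0.378). Over distinct junctions, which count different joints and not usage, it was 8.18 (exact p = 0.005). In Lig4-/-Ku70-/- against the Lig4 add-back the difference was 1.24 (exact p = 0.095, adjusted p = 0.171), 7.24 over distinct junctions (exact p = 0.005) and 2.55 with a window of 25 bp (exact p = 0.01). It was 1.74 without Lig4-/-Ku70-/- A1_1 replicate 1 (exact p = 0.035).

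The distal pair had a larger median loss from the V end in each Ku70-/- library, but the difference did not pass the correction over 27 tests. The proximal and distal medians were 8 and 11, 16 and 30, and 11 and 39 bases in clone A1 and 9 and 16, 9 and 16, and 9 and 15 in clone B1. Distal members had 10, 3 and 11 coding-orientation junctions in clone A1 and 224, 265 and 283 in clone B1. The mean difference was -10.8 bases, lower for proximal members in 6 of 6 libraries (two-sided exact sign-flip permutation p = 0.03125, the smallest possible, adjusted p = 0.0767). It was -7.40 without Ku70-/- A1 replicate 3. Counting distinct junctions once it was -2.67 (exact p = 0.938). In WT both medians were 3 in all 6 libraries. By member in Ku70-/- B1 the median loss was 9.0 bases for Igkv12-44 and for Igkv12-46, 10.0 ± 1.0 for Igkv12-41, 11.0 ± 2.6 for Igkv12-38, 12.7 ± 1.2 for Igkv12-89 and 17.5 ± 0.87 for Igkv12-98 (SD, n = 3).

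**Figure D5:**
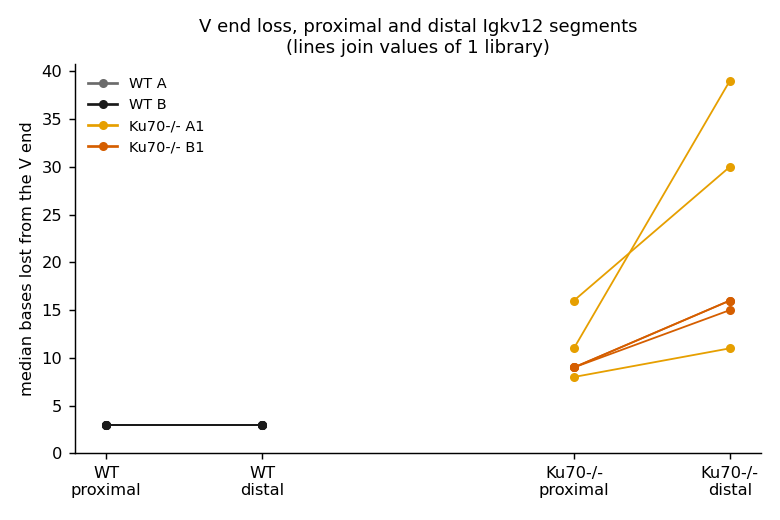
Median bases lost from the V end for proximal and distal members within each library of WT and Ku70-/-; each line joins the values of 1 library. In WT all lines are flat at 3 bases, and in Ku70-/- all 6 distal values are higher, from 11 to 39 bases against 8 to 16. The distal medians of clone A1 rest on 10, 3 and 11 coding-orientation junctions.

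Microhomology and insertions also did not pass the correction between proximal and distal members. In Ku70-/- the microhomology share differed by 2.24 percentage points (higher for proximal members in 5 of 6 libraries, exact sign-flip permutation p = 0.5, adjusted p = 0.643). The insertion share differed by 0.888 (higher for proximal members in 5 of 6 libraries, exact p = 0.0625, adjusted p = 0.121) and by 2.38 over distinct junctions (exact p = 0.03125). In WT the differences were -0.0667 for microhomology (exact p = 0.5625, adjusted p = 0.66) and -1.53 for insertions (exact p = 0.5625, adjusted p = 0.66), both lower for proximal members in 4 of 6 libraries. The WT microhomology difference was 0.593 over distinct junctions and -4.88 when an overlap of 1 base counted (exact p = 0.03125 in both).

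Set beside all other Igkv segments of the same library, the family had less microhomology in WT, by 0.907 percentage points, in 6 of 6 libraries (exact sign-flip permutation p = 0.03125, the smallest possible, adjusted p = 0.0767). Its insertion share was 1.77 higher, again in 6 of 6 (exact p = 0.03125, adjusted p = 0.0767). Neither passed the correction, and both turned over distinct junctions, to 0.322 and -0.298. In Ku70-/- the family had 2.42 percentage points more microhomology in 5 of 6 libraries (exact p = 0.0625, adjusted p = 0.121), but 0.834 less when 3 shared bases were required (exact p = 0.03125). Its median V loss was 4.5 bases smaller on average, smaller in 5 of 6 libraries and equal in 1 (exact p = 0.0625, adjusted p = 0.121), and the difference in mean loss was -3.78 bases (exact p = 0.03125).

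Loss of Lig4 left few joints to describe. The 12 Lig4-/- libraries held 28 family junctions among 490, which is 5.71% (exact Clopper-Pearson 95% interval 3.83% to 8.15%). Per library the family had 0 to 6 junctions, and in the 3 libraries at 0 a count of 3 would be 8.57%, 17.6% and 9.38% of the junctions. Igkv12-44 was found in all 4 sets, Igkv12-89 and Igkv12-38 in none. Of the 28 junctions 12 had microhomology (42.9%, exact interval 24.5% to 62.8%), 7 had insertions (25.0%, 10.7% to 44.9%) and 18 were in coding orientation (64.3%, 44.1% to 81.4%). These intervals pool 4 sets that differed, and some junctions were the same joint read more than once. The 5 junctions of clone C were 3 distinct junctions, since the 3 of its library 2 were 1. In clone B1 the 14 were 12 distinct junctions, and in the first A1 set the 8 were 6. Microhomology was at 10 of 14 junctions in clone B1 and 0 of 5 in clone C. In the A1 sets it was at 2 of 8 and 0 of 1. Insertions were at 2 of 14 in B1, 2 of 5 in C, and 3 of 8 and 0 of 1 in the A1 sets. Coding orientation was at 7 of 14 in B1, 5 of 5 in C, and 5 of 8 and 1 of 1 in the A1 sets. Family usage in Lig4-/- against WT differed by -2.03 percentage points over lineages A and B (exact permutation p = 0.27, adjusted p = 0.378), with the first Lig4-/- A1 set standing for lineage A. With the second set in its place it differed by -4.25 (exact p = 0.035).

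In cells with Lig4 added back, insertions were found in 55.6%, 54.8% and 50.3% of family junctions of clone A1 and 53.1%, 50.9% and 51.8% of clone C. Median V loss was 3 bases in all 6 libraries. Microhomology was 2.43%, 2.00% and 3.18% in clone A1 and 0.860%, 0.822% and 0.704% in clone C. Opposite-orientation junctions made up 4.18% ± 1.8 in clone A1 and 0.522% ± 0.13 in clone C (SD, n = 3). Igkv12-38 had the highest mean microhomology of the 6 members, at 5.64% and 1.81%, on few junctions. In coding orientation it was at 6.90%, 10.3% and 0% in clone A1, on 29, 39 and 43 junctions. In clone C it was at 0%, 1.79% and 2.75%, on 111, 112 and 109. Igkv12-98 overlapped with it, at 6.45%, 0% and 0% and at 1.41%, 1.72% and 0%. Differences between members were not tested.

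In Lig4-/-Ku70-/- cells the family was joined in numbers that Lig4-/- cells did not show, 143 to 327 junctions per library in clone A1_1 and 389 to 775 in clone C1. Against the Lig4 add-back, microhomology rose by 20.1 percentage points, insertions fell by 49.8, V loss rose by 10.0 bases and coding orientation fell by 31.6 (two-sided exact permutation p = 0.005 and adjusted p = 0.0169 for each, with no overlap in either lineage). Microhomology was 27.3%, 25.5% and 25.4% in clone A1_1 and 15.4%, 19.8% and 17.4% in clone C1. Insertions were 4.90%, 3.19% and 1.22%, and 4.37%, 2.12% and 2.06%. The AC joint was again found, in 16 of 302 junctions of Igkv12-41 and 15 of 534 of Igkv12-46 in clone C1, 15 and 13 of them in 1 library.

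Ku70-/- A1 and Lig4-/-Ku70-/- A1_1 libraries of the same number shared a sequencing run, so they are set side by side within the 3 runs. Coding orientation was 64.4% and 61.5%, 65.7% and 62.4%, and 71.2% and 66.7%, lower in Lig4-/-Ku70-/- in 3 of 3 runs. Microhomology was 17.1% and 27.3%, 19.8% and 25.5%, and 20.0% and 25.4%, higher in 3 of 3. Insertions were 1.85% and 4.90%, 0.870% and 3.19%, and 1.58% and 1.22%, higher in 2 of 3. Median V loss was 9 and 24, 16 and 9, and 12 and 16 bases, higher in 2 of 3. These differences were not tested.

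Family usage in Lig4-/-Ku70-/- was 9.52 percentage points below Lig4-/- (exact permutation p = 1, adjusted p = 1), a value set by 1 library, Lig4-/- C replicate 2, whose 3 junctions all lay at Igkv12-41. Without it the difference was 6.44 in the other direction (exact p = 0.005). Lineage A entered here with the second Lig4-/- A1 set. With the first set in its place, also without that library, the difference was 4.22 (exact p = 0.015), and the libraries of lineage A overlapped. With Ku70 added back to the double-null cells the family had 1, 11 and 2 junctions in clone A1_1 and 65, 32 and 60 in clone C1. Usage differed by -0.387 percentage points from Lig4-/-Ku70-/- (exact permutation p = 0.92, adjusted p = 0.994). Of the 157 junctions in C1, 43 had microhomology (27.4%, exact interval 20.6% to 35.1%), 11 had insertions (7.01%, 3.55% to 12.2%) and 103 were in coding orientation (65.6%, 57.6% to 73.0%). These shares pool libraries that differed, with microhomology at 20.0%, 62.5% and 16.7%. The 32 junctions of C1 library 2 were 5 distinct junctions. In clone A1_1, 1 of 14 junctions had microhomology, 0 of 14 had insertions and 6 of 14 were in coding orientation. Igkv12-89 was not found in either of these clones.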

How the data were processed

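Junctions from the Jk1 coding end were read in 42 libraries by LAM-HTGTS, in which the bait end is copied linearly before sequencing. Per the labels, libraries were normalised to 167151, 377068 or 600000 raw reads and analysed with the LAM-HTGTS pipeline. The submitters' processing notes name Bowtie2 and mm10. The deposited lists give 1 line per read with prey position, strand and bait end.

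Here, junctions were assigned to the nearest RefSeq Igkv segment (GRCm38.p6) within 100 bp. Overlap of bait and prey alignments gave microhomology (at least 2 bases) and gaps gave insertions. Libraries were compared by exact permutation, within lineages or by sign flips within libraries, with Benjamini-Hochberg adjustment over 27 tests. Segment fits used limma 3.58.1 in R 4.3.3 with a pseudocount of 0.5 on 24 libraries, adjusted over all segments tested. On simulated data the Ku70-/- against WT usage fit recovered 95% of 20 segments changed by 1 log2, among 103, with 1 false call. The simulated spread between libraries was fixed and not estimated from these data, so these figures may not hold for them. Python 3.11.15, pandas 2.3.3 and scipy 1.17.1 were used. All members are named, with the nearest neighbouring segments and the 3 segments of most similar usage. Members and lists were chosen with earlier results of these data known. The Cas9, ZFN and transcriptomic samples of the 116 were not used here. Same-numbered libraries were not treated as pairs. Alternatives were distinct junctions, a 25 bp window, other microhomology minimums, denominators, filters and pseudocounts, a replicate block and leaving out each library. Leaving out junctions whose bait ran past the Jk1 coding end, and exchanging the Lig4-/- A1 sets, were chosen after seeing the data.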

Additional observations from a re-analysis of the deposited data

Results flagged for a closer look

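Family usage in Lig4-/-Ku70-/- against the Lig4 add-back differed between lineages. The difference in lineage A minus that in lineage C was -3.57 percentage points (two-sided exact permutation of libraries, p = 0.01, adjusted p = 0.12 over 12 such differences). Family usage was 1.66 percentage points lower in lineage A, which is -1.66 with no overlap of libraries, and 1.91 higher in lineage C with overlap. In each lineage the genotypes lay in different sequencing runs, and the part of the run in this difference was not tested.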

How the results depend on the processing

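Of the alternatives other than leaving out each library in turn, 127 of 149 left a main result on its side of the threshold, or a count within 1.5 times. A change of direction was counted only where the main or the alternative result passed 0.05. Some comparisons within sequencing runs, and a setting without Lig4-/- C replicate 2, used fewer libraries. Distinct junctions, which count different joints and not how often each was seen, changed most. They turned family usage in Ku70-/- against WT to 1.43, family minus other segments in WT to 0.322 for microhomology and -0.298 for insertions, and proximal minus distal microhomology in WT to 0.593. They gave family usage 1.89 and proximal shares 8.18 and 7.24 for Ku70-/- and Lig4-/-Ku70-/-, proximal minus distal insertions 2.38 and V loss -2.67 in Ku70-/-, and 15 and 8 segments called for microhomology and V loss, where 15 and 8 could be tested. Distinct-junction usage turned Igkv12-44 to 0.73 and Igkv12-46 to 0.34 in Ku70-/- and Igkv12-44 to 0.79 and Igkv12-98 to -0.54 in Lig4-/-Ku70-/- (log2); the cause was not tested. A 25 bp window gave -1.16 for Ku70-/- usage and 2.55 for the Lig4-/-Ku70-/- proximal share. A 1-base minimum for microhomology gave -4.88 for proximal minus distal and -0.650 for family minus others in WT, and a 3-base minimum -0.834 for family minus others in Ku70-/-. Means in place of medians gave family minus other V loss of -0.311 in WT and -3.78 in Ku70-/-. Without a filter 77 segments in place of 51 were called for Lig4-/-Ku70-/- usage, and limma without weights called 15 in place of 28 for the lineage difference.

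The other Lig4-/- A1 set, chosen after seeing the data, gave -4.25 for usage in Lig4-/- against WT, and 4.22 in Lig4-/-Ku70-/- against Lig4-/- when Lig4-/- C replicate 2 was also left out.

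Leaving out 1 library gave proximal shares of 0.899 to 1.74 and family usage of -18.0 to 6.44 against Lig4-/-. It gave V loss of -12.4 to -7.40, microhomology of -0.993 to -0.837 and insertions of 1.38 to 1.96 for the sign-flip results, which cannot pass with 5 libraries (smallest exact p = 0.0625). It gave 18 to 34 segments for the lineage difference and 31 to 56 for V loss, the extremes 18 and 56 without Ku70-/- A1 replicate 3 and replicate 1. The share of higher segments among usage calls moved from 40.9% to 51.2% (Ku70-/-) and from 29.4% to 45.0% (Lig4-/-Ku70-/-) with library centring, and to 63.5% and 51.9% without the filter on low segments, where most calls were higher in both.

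With the replicate block all exact tests between genotypes and all usage fits of members stayed on their side of the threshold, and microhomology in Ku70-/- kept 19.6 (exact p = 0.03125). Segments called for usage were 45 in place of 44 (Ku70-/-), 56 in place of 51 (Lig4-/-Ku70-/-) and 32 in place of 28 (lineage difference). Same-numbered libraries of the groups compared correlated from -0.181 to 0.184, and not all pairs passed 0.1 in any comparison. In lineage A the replicate numbers follow 3 sequencing runs in all groups but WT and the Lig4 add-back, with WT sharing runs 2 and 3. Ku70-/- A1 and Lig4-/-Ku70-/- A1_1, which share all 3, correlated at 0.182, -0.0135 and -0.0479. Low junction numbers limit the distal members in Ku70-/- A1 and Lig4-/-Ku70-/-, and all members in Lig4-/-.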
